A study of Gallus gallus with 6 samples.

Results

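The interferon response is the first line of defence of vertebrate cells against viruses. Foreign nucleic acid in the cytoplasm is bound by sensor proteins, which act through adaptors and kinases on interferon regulatory factors (IRFs), and these switch on interferon genes. Secreted interferon then acts through its receptors, JAK kinases and STAT proteins to induce effector genes, whose products block the entry, translation or replication of viruses. Plasmid DNA that reaches the cytoplasm can be read by the same sensors, so this response is of interest in any experiment that delivers plasmids into cells. Chickens are known to lack the RNA sensor RIG-I, which leaves MDA5, the product of *IFIH1*, as their main cytoplasmic RNA sensor of that family.

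Described here are 9 genes of this response: *IFIH1*, the transcription factor genes *IRF1* and *IRF7*, and the effector genes *MX1*, *OASL*, *EIF2AK2*, *RSAD2*, *CMPK2* and *IFIT5*. They were chosen by name, with earlier results of these data known, so a call among them is not an independent test. Each name matched a row of the count table, so that 9 of its 24356 genes are members. The 6 samples of sorted chick head ectoderm comprised 3 Sox8OE and 3 Control samples, each sequenced as bulk RNA. Both groups were electroporated with plasmids at head fold stages, cultured ex ovo at 38 °C for 16 to 24 hours, freed of the endogenous otic placode and sorted for cells carrying both mCherry and EGFP. Sox8OE cells received pCES-Sox8-mCherry, which expresses the transcription factor Sox8, with pTK-Lmx1aE1-EGFP, a reporter under an otic enhancer of *Lmx1a*. Control cells received pCES-mCherry with pCES-EGFP, which express both fluorescent proteins constitutively. Sox8OE cells were therefore selected on the activity of an otic enhancer and Control cells were not, so overexpression of Sox8 and selection by the reporter cannot be told apart. No sample without plasmid was among the 6, and the comparison shows how the response differed between 2 plasmid mixtures, not how strongly electroporation itself induced it.

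Values are given below in the order of replicates 1, 2 and 3 of a group. Total counts ranged from 26326573 to 46586658 per sample, and 14085 to 15161 genes had at least 10 counts. *SOX8* had 773 to 2147 counts in Control and 8500 to 9931 in Sox8OE, in accordance with the labels. Of 14 head ectoderm markers, all had at least 10 counts in every sample. Ribosomal protein genes took 5.28%, 10.7% and 8.25% of the counts in Sox8OE and 5.03% to 6.86% in Control. Because Sox8OE replicates 2 and 3 stand apart in this way, results were also computed without them and without each sample in turn. The labels do not say which cultures or embryos each sample came from, so p-values measure the spread between these samples.

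All 9 genes together took only 17.4, 22.2 and 28 CPM (counts scaled to a common library total) in Control, against 27.7, 22.7 and 38.6 CPM in Sox8OE. The groups overlapped in this summed level. A single member, *IRF7*, rose in Sox8OE past both thresholds, which were 0.05 for the adjusted p and 1.5 for the log2 fold change in either direction. Of all 16032 genes with an adjusted p, 686 (4.28%) passed both, 3.32% as higher and 0.961% as lower, and 5.24% passed the adjusted p alone. An unadjusted p under 0.05 was reached by 1 member and by 21.8% of all genes tested. Of the members, 8 had an adjusted p, and 1 call among 8 genes is too few to set against that share. The 8 were split evenly, with 4 fitted higher and 4 lower in Sox8OE, and their median log2 fold change was 0.20, against 0.08 over all genes tested, of which 53% were fitted higher. In 1 of the 8 (12.5%) all Sox8OE values lay on one side of all Control values, against 19.2% of all genes tested (10.1% above and 9.09% below). With 8 genes, these shares are not read as differing from those of all genes tested, nor as a result about the members as a group.

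**Figure D1:**
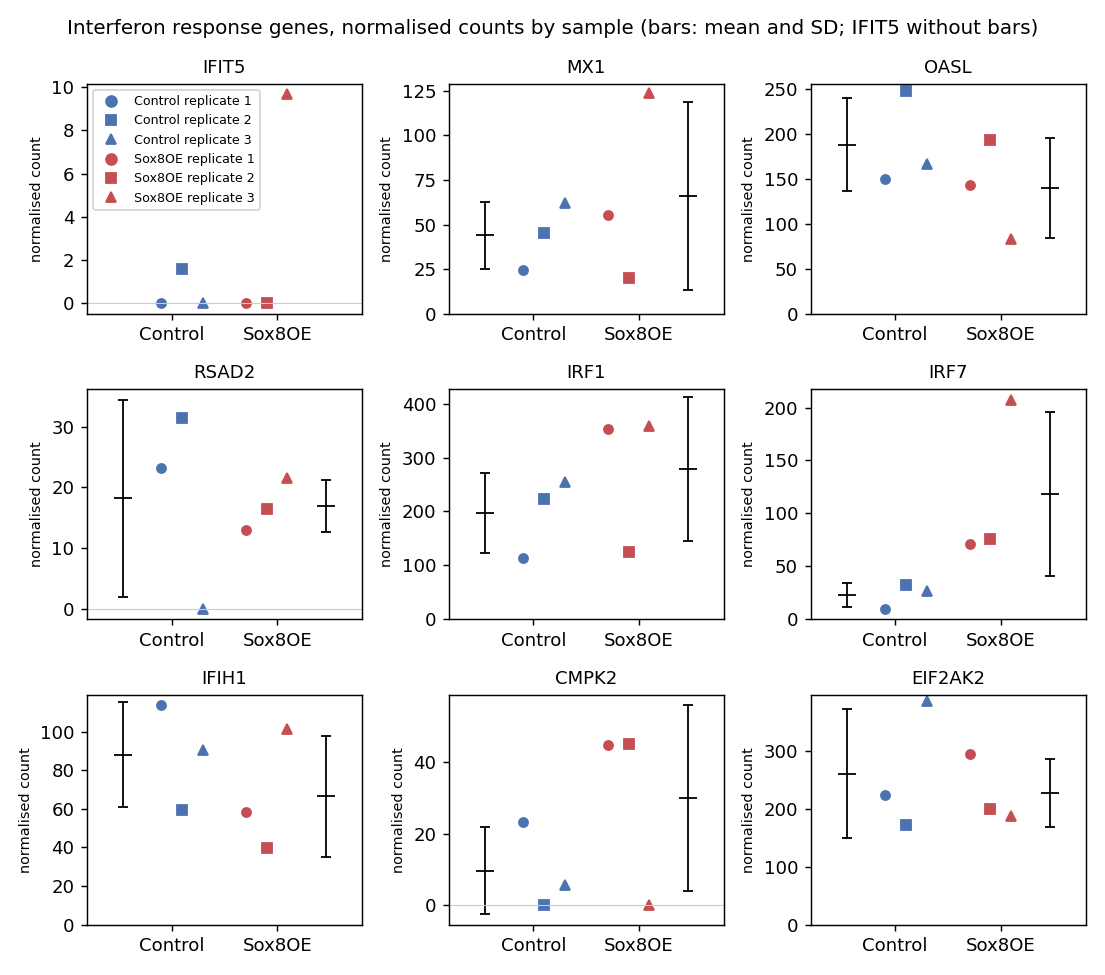
Normalised counts (counts divided by the DESeq2 size factor) of the 9 interferon response genes in each of 3 Control (blue) and 3 Sox8OE (red) samples, with the group mean and SD as bars except at IFIT5. IRF7 is the only gene whose groups do not overlap, from 9.95 to 32.2 in Control and from 71.5 to 208 in Sox8OE.

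*IRF7* (ENSGALG00000014297) encodes the regulatory factor that, once phosphorylated, activates the genes of type I interferons, and it is itself induced by interferon in mammals. It had 9, 41 and 29 counts in Control and 83, 69 and 193 in Sox8OE. After normalisation these were 9.95, 32.2 and 26.8 in Control and 71.5, 75.8 and 208 in Sox8OE. Every Sox8OE sample lay above every Control sample, and Sox8OE replicate 3 was the highest by a wide margin. The mean rose from 23.0 ± 11.6 to 118 ± 77.3 (SD, n = 3 per group). The log2 fold change was 2.36 ± 0.71 (SE), a fold of 5.12 with a 95% interval of 1.96 to 13.4, and the DESeq2 adjusted p was 0.024. With edgeR's quasi-likelihood test the size was nearly the same (2.38), but the adjusted p was 0.22, and limma voom gave 0.25. edgeR called 41 of 14862 genes in all (0.276%).

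The call of *IRF7* rested on most of the samples. Its direction was the same in 18 of 18 alternatives, with log2 fold changes of 1.64 to 2.66, but many of these could hardly turn it. Changes of the fold change threshold, independent filtering or the outlier filter kept the same estimate. Every Sox8OE sample also lay above every Control sample, which left little room for a turn when samples were left out. *IRF7* was no longer past the DESeq2 threshold without Control replicate 1 (2.0, adjusted p 0.21), Control replicate 3 (2.48, 0.12), Sox8OE replicate 2 (2.58, 0.061) or Sox8OE replicate 3 (1.67, 0.45). Without both Sox8OE replicates 2 and 3 the log2 fold change was 1.64 and the adjusted p 0.83, where Sox8OE replicate 1 is a lone sample assumed to vary as the Control samples do. It stayed past both thresholds without Sox8OE replicate 1 (2.60, 0.0024) and without Control replicate 2 (2.66, 0.04).

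**Figure D2:**
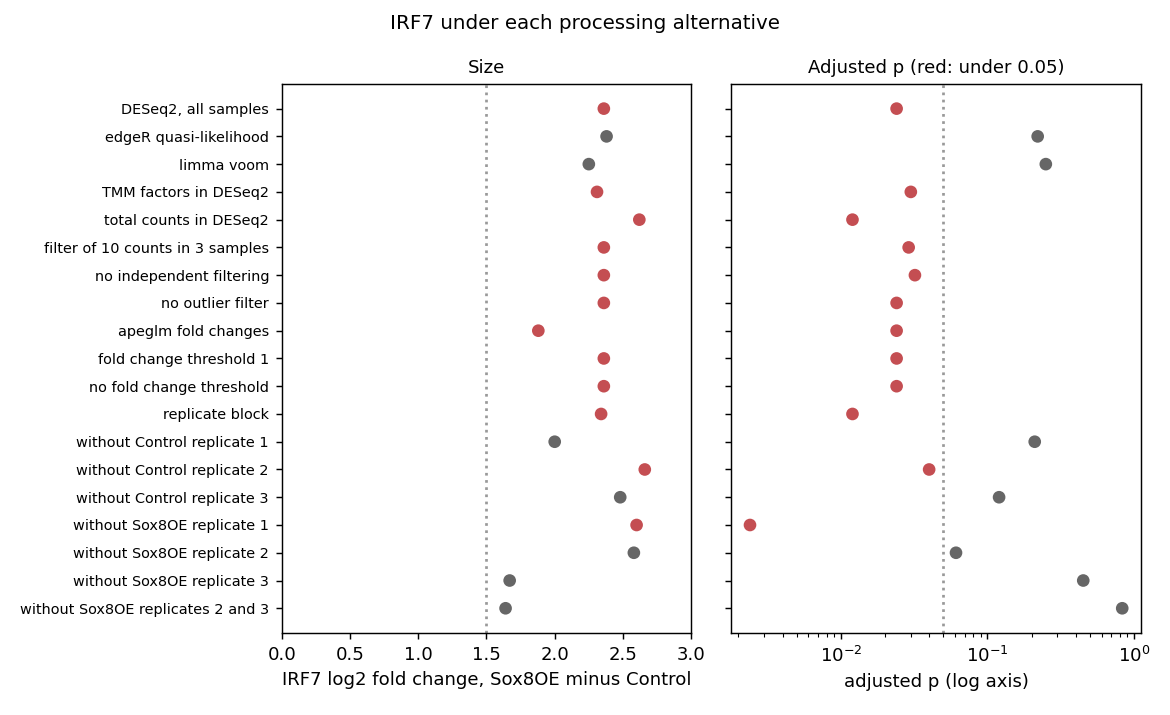
Log2 fold change of IRF7, Sox8OE minus Control (left), and its adjusted p on a log axis (right), for DESeq2 with all samples and for 18 alternatives, with dotted lines at the thresholds and red where the adjusted p was under 0.05. All sizes lie between 1.64 and 2.66, while the adjusted p spans 0.0024 to 0.83.

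Markers of other cell types were read beside *IRF7*. The summed level of 10 leukocyte markers was 36, 24.9 and 33.2 CPM in Control and 53.4, 36.5 and 41 in Sox8OE. On this scale the lowest Sox8OE sample lay barely above the highest Control sample (36.5 against 36). All sums here are in CPM, whereas *IRF7* was compared in normalised counts. Scaling to total counts raised the median log2 fold change of all genes by 0.21. A narrow gap between sums is therefore not read as a difference. Of the 8 leukocyte markers with an adjusted p, 3 were fitted higher and 5 lower. *CD3E*, a T cell receptor component, carried the higher sum in Sox8OE, with 169 to 205 counts in Control and 621 to 1394 in Sox8OE. It passed both thresholds, as did 3.32% of all genes tested as higher (log2 fold change 2.29, DESeq2 adjusted p 1.5e-06, edgeR 0.044). The other 9 markers summed to 30.6, 20.5 and 28.8 CPM in Control and 21.2, 14.8 and 16.5 in Sox8OE, and *SPI1*, a defining factor of myeloid cells, had 0 counts in 5 samples and 1 in Sox8OE replicate 3. *PTPRC*, the pan-leukocyte surface phosphatase, had 32 to 100 counts in Control and 56 to 86 in Sox8OE. The summed level of 8 endothelial markers was 16.3 to 39.2 CPM in Control and 16, 82.1 and 85.9 CPM in Sox8OE. *PECAM1*, an endothelial adhesion gene, held most of it, and the other 7 summed to 5.23, 5.32 and 14.4 CPM in Control and 7.97, 7.61 and 12.6 in Sox8OE. Of the 8 endothelial markers, 6 were fitted higher and 2 lower, with a median log2 fold change of 0.34. Among them 1 gene passed the adjusted p, *FLI1*, which was lower, as were 1.3% of all genes tested. It had 69 to 99 counts in Control and 4 to 11 in Sox8OE (DESeq2 adjusted p 0.00031). Head ectoderm markers summed to 1580 to 1850 CPM in Control and 2430 to 3330 in Sox8OE. *CLDN1*, a claudin gene, had the most counts of them in every sample. Its groups overlapped in normalised counts (log2 fold change 0.45, DESeq2 adjusted p 0.55). Of the 14 markers, 12 were fitted higher and 2 lower. The adjusted p was passed by 3 as higher and 0 as lower, against 3.94% and 1.3% of all genes tested. Neural ectoderm markers summed to 1960 to 2100 CPM in Control and 1160 to 1660 in Sox8OE, but without *HES5*, a Notch target, to 333 to 435 and 317 to 446. Head mesenchyme markers summed to 123 to 149 CPM in Control and 60.3 to 88 in Sox8OE. Of these 9 genes, 4 passed the adjusted p as lower and 1 as higher, against 1.3% and 3.94% of all genes tested. Their median log2 fold change was 0.40. The part of these cell types in the level of *IRF7* was not tested. In bulk samples, fewer cells of a type and less RNA per cell cannot be told apart.

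In the RefSeq annotation of the assembly GRCg7b, *IRF7* also carries the name IRF3 as a synonym and overlaps an unnamed locus (LOC121113257). Whether reads were counted by strand was not stated, so reads from that locus may be included. *SLC25A22*, its neighbour in that assembly, had 3238 to 3407 normalised counts in Control and 1690 to 2451 in Sox8OE, with a log2 fold change of -0.70 and a DESeq2 adjusted p of 0.15.

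*IRF1* (ENSGALG00000006785), the other regulatory factor among the members, acts downstream of interferon gamma and inflammatory signals. Its normalised counts were 113, 223 and 255 in Control and 353, 124 and 358 in Sox8OE. Sox8OE replicates 1 and 3 lay above all Control samples and Sox8OE replicate 2 lay among them. The means were 197 ± 74.5 and 278 ± 134 (SD, n = 3), and DESeq2 put the log2 fold change at 0.50 ± 0.54 (SE), with 0.59 as its adjusted p. The 95% interval of the fold, 0.675 to 2.96, leaves room for a fall as well as for a rise.

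The sensor gene *IFIH1* (ENSGALG00000041192) had normalised counts of 114, 59.6 and 90.5 in Control and 58.6, 39.6 and 101 in Sox8OE. Sox8OE replicate 3 lay within the Control range and the other Sox8OE samples lay below it. The means were 88.0 ± 27.2 and 66.4 ± 31.5 (SD, n = 3). The fold was 0.756 with a 95% interval of 0.341 to 1.68 (DESeq2 adjusted p 0.69).

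Among the effectors, *MX1* (ENSGALG00000016142), a dynamin-like GTPase that traps viral components in mammals, had normalised counts of 24.3, 45.5 and 61.8 in Control and 55.1, 19.8 and 124 in Sox8OE. The Sox8OE samples held both the lowest and the highest value of all 6. Their highest was 6.25 times their lowest, against 2.54 times in Control. The fold was 1.51 with a 95% interval of 0.519 to 4.37 (DESeq2 adjusted p 0.66). The direction turned without Sox8OE replicate 3, where the log2 fold change was -0.23.

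*OASL* (ENSGALG00000013723) encodes a member of the oligoadenylate synthetase family, which in mammals activates an RNA-degrading enzyme or strengthens RNA sensing. Its normalised counts were 150, 248 and 167 in Control and 144, 193 and 82.8 in Sox8OE. Sox8OE replicates 1 and 3 lay below all Control samples and Sox8OE replicate 2 lay between Control values. The means were 188 ± 52.2 and 140.0 ± 55.4 (SD, n = 3), a fold of 0.742 with a 95% interval of 0.383 to 1.44 (DESeq2 adjusted p 0.60). *OASL* overlaps a further locus (LOC101747452) in GRCg7b.

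*EIF2AK2* (ENSGALG00000010560) encodes the kinase PKR, which halts translation when it binds double-stranded RNA. Its normalised counts were 224, 171 and 385 in Control and 295, 199 and 188 in Sox8OE. All Sox8OE values lay inside the Control range. The fold was 0.874 with a 95% interval of 0.467 to 1.64 (DESeq2 adjusted p 0.82). The log2 fold change was -0.19, but 0.20 without Control replicate 3 and also without Sox8OE replicates 2 and 3.

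The remaining 3 effectors were detected at few counts. *RSAD2* (ENSGALG00000016400) encodes viperin, a radical SAM enzyme that makes a chain-terminating nucleotide, and *CMPK2* (ENSGALG00000028982) encodes a mitochondrial nucleotide kinase thought to supply its substrate. They are adjacent genes in GRCg7b. *RSAD2* had 21, 40 and 0 counts in Control and 15, 15 and 20 in Sox8OE. Control thus held both the highest value and a sample at 0, while the Sox8OE samples were close together. *CMPK2* had 21, 0 and 6 counts in Control and 52, 41 and 0 in Sox8OE. The samples at 0 were Control replicate 3 for *RSAD2*, and Control replicate 2 and Sox8OE replicate 3 for *CMPK2*, so no sample lacked both.

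For *RSAD2* the fold was 0.931 with a 95% interval of 0.156 to 5.56 (DESeq2 adjusted p 0.97). For *CMPK2* it was 3.15 with a 95% interval of 0.312 to 31.7 (adjusted p 0.56), and its log2 fold change moved from 1.65 to 3.44 without Control replicate 1 (adjusted p 0.45). The spread of *CMPK2* between replicates was unusual: its dispersion was above that of 95.5% of 1642 genes of similar mean count, whereas the other 7 tested members lay above 24.4% to 69.8% of such genes. *IFIT5* (ENSGALG00000045085), the RNA-binding IFIT protein of birds, had 0, 2 and 0 counts in Control and 0, 0 and 9 in Sox8OE. A count of 0 allows up to 3 counts, or 0.0644 to 0.114 CPM in these samples, and such limits cover counting error only. At this depth no difference was detectable for *IFIT5*, and its fitted fold is not read as a measurement.

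**Figure D3:**
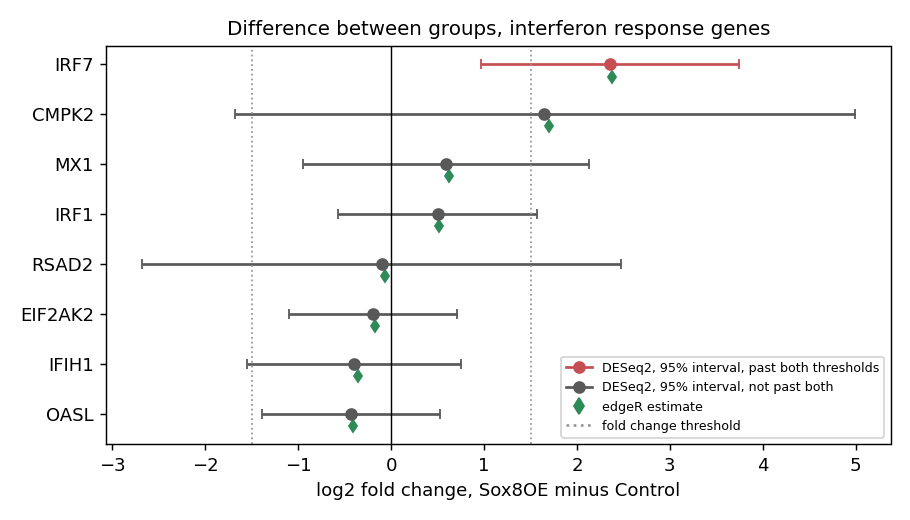
Log2 fold change, Sox8OE minus Control, of the 8 interferon response genes with an adjusted p, as the DESeq2 estimate with its 95% interval (circles) and the edgeR estimate (diamonds), with dotted lines at the fold change threshold of 1.5. Only the interval of IRF7 (a fold of 1.96 to 13.4) lies wholly above 0, and those of CMPK2 and RSAD2 are the widest.

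No sample was high or low in all members. Over the 8 tested members, Sox8OE replicate 3 was the highest sample at 3 genes and the lowest at 1, and Sox8OE replicate 1 was neither at any of them. Control replicate 2 was the highest at 2 genes and the lowest at 2, counting *CMPK2*, where it tied with Sox8OE replicate 3 at 0 counts. When each gene's log2 values were standardised over the 6 samples, the mean over the 8 members was -0.21, -0.12 and 0.06 in Control, and 0.34, -0.26 and 0.20 in Sox8OE. This mean profile was itself standardised over the 6 samples before genes were compared with it. Single members then had mean absolute differences of 0.28 (*IRF1*) to 1.42 (*OASL*) from the standardised profile, so it describes few of them. Of 11132 other named genes, those nearest to it were *ETS2* (0.05), *TMEM51* (0.07), *SLC26A2* (0.09), *MCOLN3* (0.12) and *KLHL32* (0.13), as a description over 6 samples. *ETS2*, a transcription factor gene, had 84, 91.8 and 125 normalised counts in Control and 183, 72.5 and 153 in Sox8OE.

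Around these genes, 7 lists of the wider pathway held 119 genes, of which 88 were found by name and 75 had an adjusted p. They were fitted higher at 38 and lower at 37, with a median log2 fold change of 0.01, against 0.08 over all genes tested. At an adjusted p under 0.05, 6 rose (among them *STAT2*, *STAT3*, *NFKB1*, *IFITM1* and *LITAF*) and 0 fell, against 3.94% and 1.3% of all genes tested. Of these, 4 also passed the fold change threshold. Samples with the same replicate number deviated together only weakly (correlations of 0.105 to 0.149 across genes), and no label says what the number marks. With the replicate number as a block, as an alternative only, 7 rose and 10 fell of 75, where 8.25% of all genes rose and 10.3% fell in the same fit. Without Sox8OE replicate 1, 14 rose and 15 fell of 74, where 17.8% of all genes rose and 21.6% fell. Without Sox8OE replicate 2 there were 0 of either (1.17% and 0.748% of all genes). With edgeR 0 of 73 passed, where 0.222% of all genes passed as higher and 0.0538% as lower. With limma voom 0 of 73 passed, where 0.182% and 0.0404% did. At such low shares a count of 0 says little about these genes. An unadjusted p under 0.05 was reached by 13 with edgeR and 15 with limma voom, without a share of all genes to set beside them. Over the 18 alternatives, an adjusted p under 0.05 was met in 14 for *IFITM1*, 12 for *STAT3*, 12 for *LITAF*, 11 for *STAT2* and 9 for *NFKB1*. Alternatives that used apeglm or changed only the fold change threshold kept the adjusted p of the main fit, so they passed by construction. Of the 6 fits without 1 sample, it was met in 5 for *IFITM1*, 3 for *STAT3*, 2 for *LITAF*, 2 for *STAT2* and 1 for *NFKB1*.

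**Figure D4:**
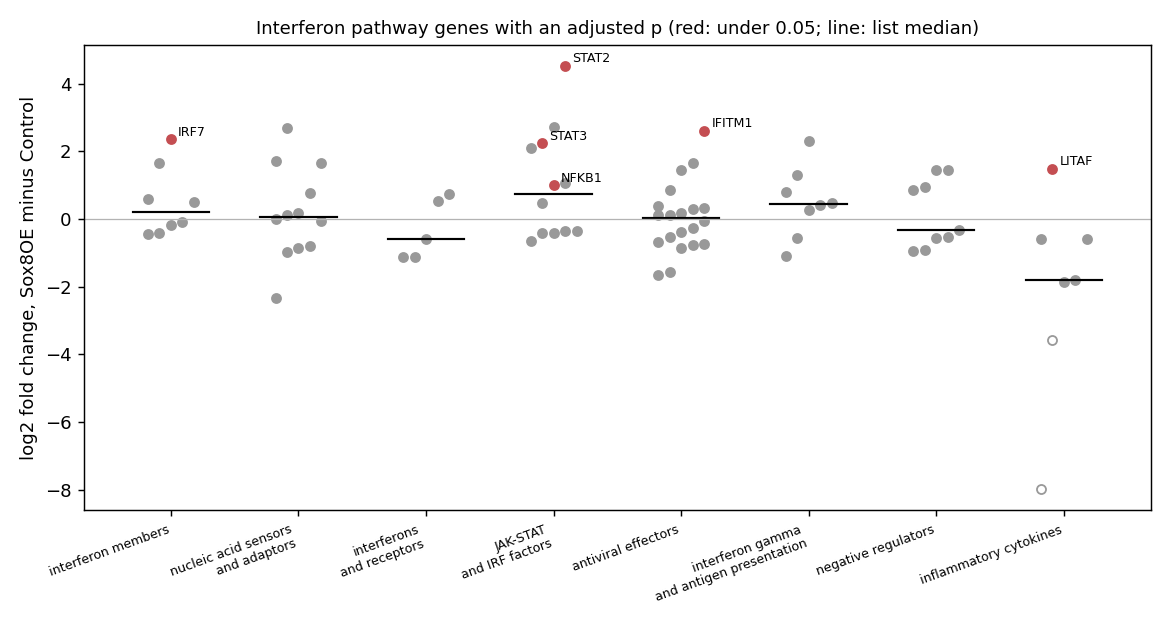
Log2 fold change, Sox8OE minus Control, of interferon response genes and of 73 of the 75 pathway genes with a DESeq2 adjusted p, by list, with red for an adjusted p under 0.05, black lines at the medians of whole lists and open circles for genes at 3 counts or fewer in every sample of a group, whose fitted size is not a measured fold. The JAK-STAT and IRF factors hold 3 of the 5 red pathway genes shown and have a median of 0.74, and the inflammatory cytokines have the lowest median, -1.80. The lists were chosen with earlier results of these data known, and 3.94% of all genes tested passed the adjusted p as higher.

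Of 12 sensors and adaptors tested, 0 passed the adjusted p in either direction, against 3.94% of all genes tested as higher and 1.3% as lower. The median log2 fold change of the 12 was 0.07. *CGAS*, the sensor of cytoplasmic DNA, had 39.8, 45.5 and 60.0 normalised counts in Control and 43.9, 216 and 199 in Sox8OE. It was high in Sox8OE replicates 2 and 3 and within the Control range in Sox8OE replicate 1. DESeq2 put its log2 fold change at 1.66 ± 0.66 (SE) and its adjusted p at 0.12. Without Sox8OE replicate 1 the log2 fold change was 2.09 with an adjusted p of 0.00024. In that fit 17.8% of all genes passed the adjusted p as higher and 21.6% as lower. Without Sox8OE replicates 2 and 3 the log2 fold change of *CGAS* was -0.13. *STING1*, the adaptor that *CGAS* acts through, had 2, 48 and 6 counts in Control and 7, 33 and 100 in Sox8OE, with overlapping groups (DESeq2 adjusted p 0.39).

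*DHX58*, which encodes the RIG-I-like helicase LGP2, had 34, 7 and 31 counts in Control and 15, 0 and 1 in Sox8OE. DESeq2 put its log2 fold change at -2.33 ± 1.48 (SE) and its adjusted p at 0.33, against a fitted -5.47 and 0.02 without Sox8OE replicate 1, where the remaining counts of 0 and 1 give no measured fold. *TLR3*, an endosomal receptor of double-stranded RNA, had 0 counts in all Control samples and 34, 0 and 2 in Sox8OE, so that it was seen mainly in Sox8OE replicate 1. *MAVS*, the adaptor of MDA5, had a log2 fold change of 0.13 (DESeq2 adjusted p 0.90). *TBK1*, the kinase that phosphorylates IRFs, had 822 to 1430 normalised counts in Control and 361 to 897 in Sox8OE. Its log2 fold change of -0.87 had a DESeq2 adjusted p of 0.23 (0.046 with the replicate block and 0.00036 without Sox8OE replicate 1). Without Sox8OE replicates 2 and 3 its log2 fold change was -0.26.

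Both chains of the type I interferon receptor were fitted lower, without a call when all samples were used. Of the 5 receptor genes tested, 3 were fitted lower and 2 higher. The other gene fitted lower was *IFNGR1*, of the interferon gamma receptor (log2 fold change -1.12, DESeq2 adjusted p 0.14). *IFNAR1*, the first chain of the type I interferon receptor, had 2469, 1657 and 2573 normalised counts in Control and 1822, 522 and 745 in Sox8OE. Only Sox8OE replicate 1 fell within the Control range. DESeq2 put its log2 fold change at -1.12 ± 0.50 (SE) and its adjusted p at 0.17, and with the replicate block it was -1.30 with an adjusted p of 0.0049. Without Sox8OE replicate 1 it was -1.83 with an adjusted p of 4.9e-09, past both thresholds. In that fit 21.6% of all genes passed the adjusted p as lower. The adjusted p of *IFNAR1* was 0.55 without Sox8OE replicate 2 and 0.52 without Sox8OE replicate 3. Without both of these replicates its log2 fold change was -0.27. *IFNAR2*, its partner chain, had 884 to 1189 normalised counts in Control and 473 to 868 in Sox8OE. These lay apart, as in 9.09% of all genes tested with Sox8OE below. Its log2 fold change was -0.60 (DESeq2 adjusted p 0.31, and 0.02 without Sox8OE replicate 1). Without Sox8OE replicates 2 and 3 the log2 fold change of *IFNAR2* was -0.25. The interferon gene *IFNW1* had 12 counts in Control replicate 3, 1 in Sox8OE replicate 2 and 0 in the other 4 samples. Of the 12 interferon and receptor genes listed, 8 were found by name, and 2 of these had no count in any sample. *IFNB*, *IFNA3*, *IFNK* and *IFNLR1* matched no row by name, so the level of these interferon genes was not examined.

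Of the 14 JAK-STAT and IRF factors tested, 4 passed the adjusted p, all as higher, against 3.94% of all genes tested as higher and 1.3% as lower. The list was chosen with earlier results of these data known, so this count is not read as an enrichment. With edgeR and limma voom 0 of them passed, where only 0.222% and 0.182% of all genes passed as higher and 0.0538% and 0.0404% as lower. *STAT2*, which carries the type I interferon signal to the nucleus, had 1, 4 and 0 counts in Control and 20, 38 and 40 in Sox8OE. The groups lay apart at low counts in both, and 10.1% of all genes tested had Sox8OE above in this way. DESeq2 put its log2 fold change at 4.53 ± 1.23 (SE) and its adjusted p at 0.0098 (edgeR 0.20). The 95% interval of the fold was 4.35 to 123, and with 0 to 4 counts in Control its size is poorly measured. *STAT3*, which serves many cytokines, had 336, 644 and 324 normalised counts in Control and 504, 3727 and 1932 in Sox8OE. Sox8OE replicate 1 lay within the Control range, and the log2 fold change of 2.24 ± 0.62 (SE, DESeq2 adjusted p 0.013) became 0.22 without Sox8OE replicates 2 and 3.

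*NFKB1*, a subunit of NF-kappa B, had 690 to 1008 normalised counts in Control and 1469 to 1676 in Sox8OE (log2 fold change 1.0 ± 0.32, SE, DESeq2 adjusted p 0.038). The kinase genes *JAK1* (log2 fold change -0.42, DESeq2 adjusted p 0.51) and *TYK2* (1.07, 0.45) did not pass with all samples. *JAK1* had an adjusted p of 0.00048 without Sox8OE replicate 1 (-0.86), but a log2 fold change of 0.18 without Sox8OE replicates 2 and 3.

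**Figure D5:**
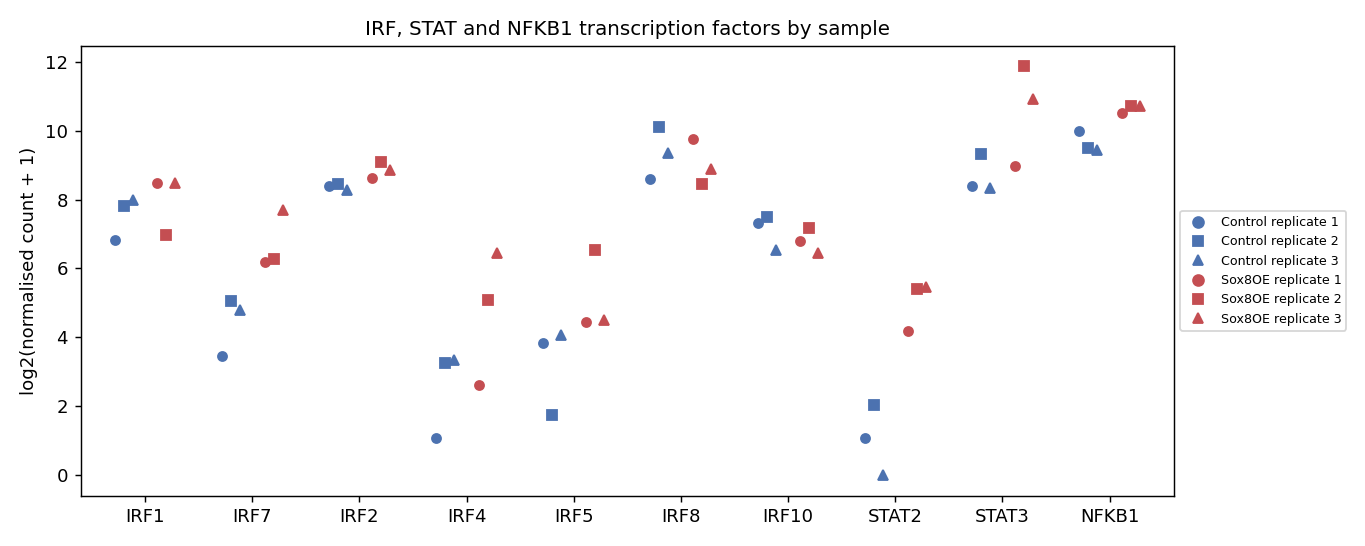
Log2 of the normalised count plus 1 of 10 IRF, STAT and NFKB1 transcription factor genes in each Control (blue) and Sox8OE (red) sample, with symbols for the replicate number. IRF7, IRF2, IRF5, STAT2 and NFKB1 have all Sox8OE samples above all Control samples, as have 10.1% of all genes tested, while IRF1, IRF4, IRF8, IRF10 and STAT3 overlap. IRF2 (DESeq2 adjusted p 0.37) and IRF5 (0.21) did not pass the adjusted p.

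The median log2 fold change of 20 further antiviral effectors tested was 0.03. At the adjusted p, 0 of them fell and 1 rose, against 1.3% and 3.94% of all genes tested. This was *IFITM1*, one of the interferon-induced transmembrane proteins that block viral entry, with 22.1, 25.9 and 30.5 normalised counts in Control and 147, 219 and 110 in Sox8OE. The lowest Sox8OE sample lay well above the highest Control sample. DESeq2 put its log2 fold change at 2.60 ± 0.52 (SE) and its adjusted p at 1e-04 (edgeR 0.10), which became 0.051 without Sox8OE replicate 2. *ZC3HAV1*, a zinc finger antiviral protein (log2 fold change 0.34, DESeq2 adjusted p 0.67), and *TRIM25*, a ubiquitin ligase of RNA sensing (0.86, 0.30), did not pass.

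Of all genes tested, 3.94% passed the adjusted p as higher and 1.3% as lower, and the remaining lists are too short to be told from these shares. In the list of interferon gamma and antigen presentation genes, 0 of 8 passed in either direction. *B2M*, the light chain of MHC class I, had a log2 fold change of 0.47 with a DESeq2 adjusted p of 0.69. Of 9 negative regulators 0 passed. In 2 of them all Sox8OE values lay above all Control values and in 1 below, against 10.1% and 9.09% of all genes tested. *SOCS1*, a feedback inhibitor of JAK kinases, had 131, 181 and 71.1 normalised counts in Control and 275, 230 and 235 in Sox8OE, which lay apart (log2 fold change 0.95 ± 0.47, SE, DESeq2 adjusted p 0.22). Of 7 inflammatory genes 1 rose, *LITAF*, a factor first described as a regulator of tumour necrosis factor, with 109 to 196 normalised counts in Control and 338 to 548 in Sox8OE (log2 fold change 1.48 ± 0.42, SE, DESeq2 adjusted p 0.015). The other 6 were fitted lower without passing, including *IL1B*, with 35, 17 and 11 counts in Control and 1, 2 and 2 in Sox8OE (adjusted p 0.077).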

How the data were processed

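The deposited table held raw read counts per Ensembl gene, which the authors made from paired reads of 75 bases with the default nf-core RNA-seq pipeline, aligned with STAR to GalGal6. Trim Galore and featureCounts are named in the submitters' processing notes. Strand setting, annotation release and treatment of shared reads are not given in the sources used here. Sorted cells numbered 4000 per sample by the series description, but the study's methods give another number. Libraries were amplified from little RNA without molecular identifiers, so counting error is a lower limit. Gene lengths were not used, so levels are compared across samples and not between genes.

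Columns were matched to samples by group and replicate number. DESeq2, the tool of the study's methods, was run here (1.42.0, R 4.3.3) on all 6 samples with group as the only term. The methods give thresholds of the same size but state neither the model formula nor whether fold changes were shrunken. Here calls needed both an adjusted p under 0.05 (Benjamini-Hochberg, over all genes) and an unshrunken log2 fold change beyond 1.5 in either direction. Alternatives used edgeR 4.0.16, limma 3.58.1 (voom) and apeglm 1.24.0, other scalings, filters and thresholds, a replicate block, and fits without samples. Same-numbered samples of the groups deviated together weakly (correlations of 0.149, 0.123 and 0.105 across genes, -0.14 to 0.026 for other pairs). No label states a shared batch, so these correlations do not establish a pairing, and the block is an alternative only. Replicates differed beyond sampling noise (chi-square of at least 26.9 per gene). The test was tried on simulated data.

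All 9 members are named. From the pathway lists, every gene with an adjusted p under 0.05 and a set of central genes are named, then the 5 genes nearest to the members' mean profile, computed on log2 values with a pseudocount of 1 among genes with at least 10 counts in 3 samples. *IL1B*, *IFNW1*, *IFNGR1*, *CD3E*, *PECAM1*, *FLI1*, *CLDN1* and *HES5* were singled out after their values were seen. Some genes that this rule names are not reported here. *ADAR* and *USP18* matched no row by name and are not analysed here. The members and lists were chosen with earlier results of these data known, and some of their transcription factors stand in the study's own table of changes in these libraries. No coordinates or sequences are given, because only gene names of another assembly (GRCg7b) were used.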

Additional observations from a re-analysis of the deposited data

How the results depend on the processing

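The number of members past both thresholds was 1 with DESeq2 on all samples and 0 with edgeR, with limma voom and without Sox8OE replicates 2 and 3. It ranged from 0 to 1 when each sample was left out in turn, and the number past the adjusted p alone followed the same values. Over all genes, 686 calls became 41 with edgeR, 33 with limma voom, 1056 with scaling to total counts, 1274 with the replicate block and 257 without Sox8OE replicates 2 and 3, and ranged from 248 to 3050 (without Sox8OE replicate 1) when each sample was left out. Total-count scaling raised the median log2 fold change of all genes by 0.21, and 87.7% of its calls were higher, against 77.6% of the main calls. Relative to that shift, *IRF7* had a log2 fold change of 2.4 and *RSAD2* -0.05.

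The direction of *RSAD2*, -0.10 in the main fit, turned with limma voom (1.26), total-count scaling (0.16), the replicate block (0.60) and without Control replicate 1 (0.10), Control replicate 2 (0.54) or Sox8OE replicate 1 (0.05). *EIF2AK2* turned without Control replicate 3 (0.20) and without Sox8OE replicates 2 and 3 (0.20), *MX1* without Sox8OE replicate 3 (-0.23), and the fitted value of *IFIT5*, which at 11 counts in all is no measured fold, without Sox8OE replicate 3 (-1.60) and without Sox8OE replicates 2 and 3 (-1.76). The cause was not tested. When each sample was left out in turn, log2 fold changes ranged from -0.69 to 0.54 for *RSAD2*, -0.44 to 0.20 for *EIF2AK2*, -0.23 to 1.01 for *MX1*, -1.60 to 4.09 for *IFIT5* (fitted values only) and 1.05 to 3.44 for *CMPK2*. *OASL*, *IRF1*, *IFIH1*, *CMPK2* and *IRF7* kept their direction in 18 of 18 alternatives, though *CMPK2* shrank to 0.11 with apeglm. Alternatives that changed only the fold change threshold, independent filtering or the outlier filter kept the main estimate and could not turn it. The replicate block changed the call of no member. Few counts limit *IFIT5*, *RSAD2* and *CMPK2*, whose folds could lie anywhere in wide intervals.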
